A study of Mus musculus with 4 samples.

Results

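The genes described here are 10 that build the perineuronal net or its relatives in brain matrix: Acan, Bcan, Ncan, Vcan, Tnr, Hapln1, Hapln2, Hapln4, Has3 and Ptprz1. They were chosen by name and not by a measured value, though with earlier results of these data known. All 10 were found by symbol among the 33696 genes counted. Each symbol stood for 1 gene row. The data are single-nucleus RNA counts from the cortex of 4 adult female mice, a method in which RNA is read from isolated nuclei 1 nucleus at a time. All 4 were wildtype C57BL/6JRj, an inbred laboratory strain, at about 12 weeks of age; 2 carried no litter and 2 were at E13.5 of a pregnancy. Each mouse gave 1 library, the labels do not name the area of cortex, and all nuclei were isolated with actinomycin D, an inhibitor of transcription.

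Perineuronal nets are dense coats of extracellular matrix that wrap the cell body and near dendrites of some neurons, in the cortex chiefly the fast-spiking inhibitory neurons that make parvalbumin (Pvalb). Hyaluronan, a long sugar chain extruded at the cell surface by hyaluronan synthases such as Has3, forms the backbone. The lecticans aggrecan (Acan), brevican (Bcan), neurocan (Ncan) and versican (Vcan) are chondroitin sulfate proteoglycans that bind it, link proteins (the Hapln genes) lock that bond, and tenascin-R (Tnr) ties lecticans together at their other end. Ptprz1 is a receptor phosphatase that carries chondroitin sulfate chains, is also released as the proteoglycan phosphacan, and binds tenascin-R.

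After filtering, 25033 of 26816 barcodes were kept, between 5949 and 6503 nuclei in a library, with 88783668 to 106497991 unique molecular identifiers (UMIs, tags that count each captured RNA once) in a library. Nuclei were grouped by clustering without the 10 genes and 65 related matrix genes, and clusters were named from marker genes, with 17 types compared here, so each name means only that a cluster resembles that type. A further cluster named for Car3 or claustrum neurons, with 35 nuclei (1 to 18 in a library), entered the excitatory sum but was not among the 17 types compared, and the excitatory sum also holds 1 cluster without a layer name. The defining markers stood where the names put them: Pvalb averaged 75.3 CPM (counts per 1000000 UMIs) in Pvalb neurons against 1.61 in excitatory neurons, Aqp4 184 in astrocytes, Mog 1138 in oligodendrocytes, Pdgfra 441 in oligodendrocyte precursors and Cx3cr1 923 in microglia. Libraries shared between 20 and 31 barcodes in any pair. A further 4 clusters, with 1523 kept nuclei, came almost only from the pregnant libraries and were left out of the named types. One unnamed cluster of shallow nuclei rich in mitochondrial RNA held 0.661% and 0.740% of the nuclei of the 2 non-pregnant mice, and 1.85% and 6.52% of those of the 2 pregnant mice.

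Lecticans and link proteins sit in pairs on mouse chromosomes, and the promoters of a pair whose genes were read in different cells, and of a pair read in overlapping cells, are shown for comparison. Acan and Hapln3, Bcan and Hapln2, Ncan and Hapln4, and Vcan and Hapln1 each have 0 other protein-coding genes between them in RefSeq's mouse annotation (GRCm38.p6, an earlier build than that of the counts). The windows are the 250 bases before the annotated start, 5′ to 3′ on the gene's strand, from RefSeq's table for GRCm38.p6. Capitals mark CG dinucleotides, the sites where vertebrate DNA is methylated. They lie at chr3:88000357-88000606 (Bcan, minus strand), chr3:88027512-88027761 (Hapln2, minus strand), chr13:89742513-89742762 (Vcan, minus strand) and chr13:89540386-89540635 (Hapln1, plus strand).
Bcan: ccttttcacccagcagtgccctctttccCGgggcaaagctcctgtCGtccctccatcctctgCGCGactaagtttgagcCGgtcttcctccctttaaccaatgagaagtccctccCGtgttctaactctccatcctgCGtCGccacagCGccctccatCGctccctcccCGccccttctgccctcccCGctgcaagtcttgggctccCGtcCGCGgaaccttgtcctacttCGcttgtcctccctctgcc
Hapln2: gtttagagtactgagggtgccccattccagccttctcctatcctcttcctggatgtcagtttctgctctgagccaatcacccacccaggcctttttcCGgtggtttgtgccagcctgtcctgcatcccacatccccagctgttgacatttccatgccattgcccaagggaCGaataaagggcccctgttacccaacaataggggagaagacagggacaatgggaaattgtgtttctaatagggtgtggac
Vcan: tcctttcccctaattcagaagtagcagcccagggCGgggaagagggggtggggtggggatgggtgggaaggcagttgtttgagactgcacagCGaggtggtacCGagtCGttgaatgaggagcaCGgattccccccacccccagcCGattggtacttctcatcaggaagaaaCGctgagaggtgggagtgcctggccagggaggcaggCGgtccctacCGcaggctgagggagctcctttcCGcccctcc
Hapln1: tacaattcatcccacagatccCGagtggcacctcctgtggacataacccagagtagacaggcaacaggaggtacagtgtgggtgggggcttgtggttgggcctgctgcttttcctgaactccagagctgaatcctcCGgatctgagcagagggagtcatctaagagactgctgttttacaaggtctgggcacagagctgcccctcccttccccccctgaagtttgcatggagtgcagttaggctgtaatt
In both pairs the lectican's window held more CG than its partner's: 16 in Bcan against 2 in Hapln2, and 10 in Vcan against 2 in Hapln1. Of all 32851 promoter windows in the table, 25.4% held at least as many CG as Bcan, 37.8% as many as Vcan, and 81.2% as many as Hapln1 or Hapln2. Of the 8 members in the table, Acan had the most CG with 26, followed by Ptprz1 with 22, while Ncan had 6 and Tnr 2. The GC-box letters GGGCGG were searched on both strands and are held by 32.7% of all windows; they occurred in the windows of Acan, Bcan, Ncan, Vcan and Ptprz1 and not in those of Tnr, Hapln1 and Hapln2. The letters TATAAA, in 12.4% of all windows, occurred in Ncan alone of the 8. These are matches of letters and not shown to be sites.

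The 10 genes came from different cells, and no cell type was highest for all of them. Oligodendrocyte precursors, the dividing glia that give rise to myelinating cells, had the highest CPM for Acan, Vcan, Tnr and Ptprz1. Astrocytes had it for Bcan, Ncan and Hapln1, mature oligodendrocytes for Hapln2, Pvalb neurons for Hapln4 and L5/6 NP neurons, a deep-layer excitatory type, for Has3. CPM was taken over the UMIs of that type in a library and is given as mean ± SD over the 4 libraries. It was not scaled to transcript length, so levels are compared between cell types and not between genes. Differences between types are described without a test.

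**Figure D1:**
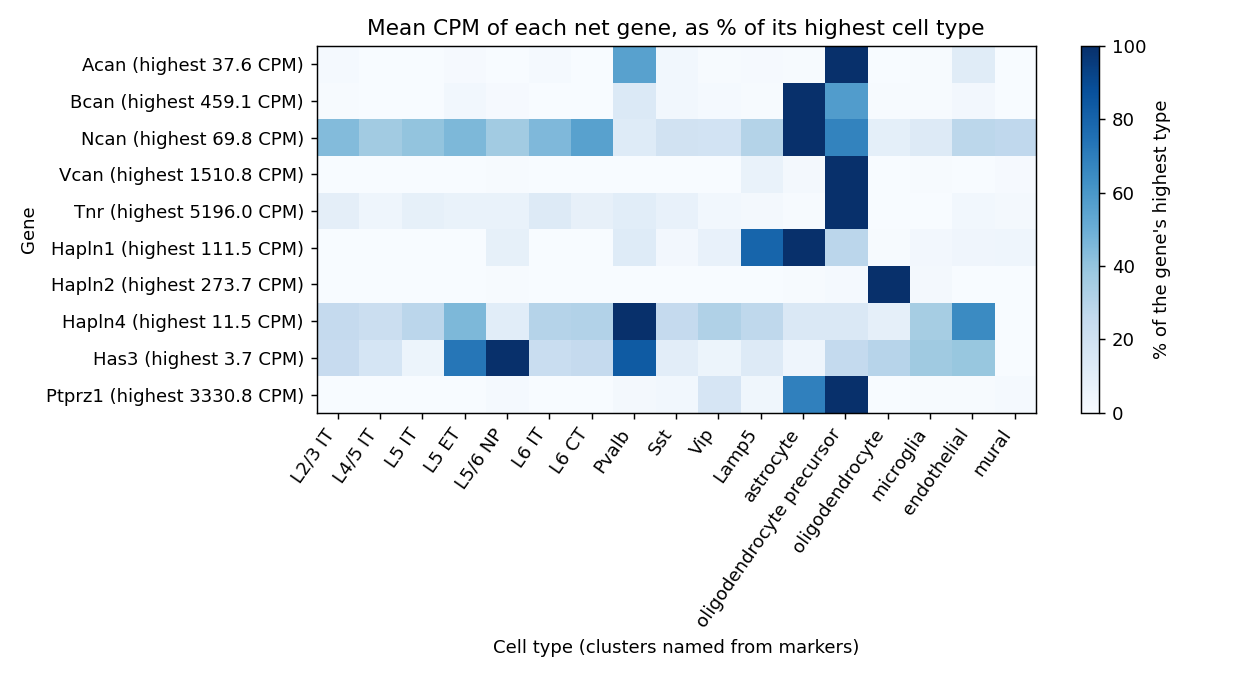
Mean CPM over 4 libraries of each net gene (rows) in 17 cell types (columns), as a percent of the gene's highest type, with that highest level beside the gene's name. Vcan, Tnr and Hapln2 are dark in 1 column each, while Ncan, Hapln4 and Has3 have colour in many neuronal columns.

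Acan, the lectican most closely tied to the net, was read mostly in 2 types. Oligodendrocyte precursors held 37.6 ± 5.2 CPM (31.2 to 43.9) and Pvalb neurons 20.9 ± 1.86 CPM (19.4 to 23.0), so the ranges of the libraries did not overlap. Sst neurons, an inhibitory class that shares a developmental origin with Pvalb neurons, held 1.06 ± 0.231 CPM, each excitatory type stayed at or below 0.519, and endothelial nuclei averaged 4.29 from 1 library alone. Pvalb neurons, more numerous and deeper, supplied the largest part of the gene's UMIs among the groups compared: 51.5%, 61.9%, 56.7% and 47.5% in the 4 libraries, from 4.00% ± 0.373 of the nuclei. Oligodendrocyte precursors supplied 20.7% on average. The counts are small, 134 to 180 Acan UMIs in a whole library. An Acan UMI was found in 22.3% ± 3.53 of Pvalb nuclei and 19.8% ± 2.11 of precursors, whose median UMI counts were 14575 and 6110. With every nucleus thinned to 2000 UMIs the shares were 3.34% ± 1.14 and 7.77% ± 1.95, the same order as the CPM. The share in microglia, which are not known to make it, was 0.077% ± 0.154 before thinning, at a median of 2838.5 UMIs.

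**Figure D2:**
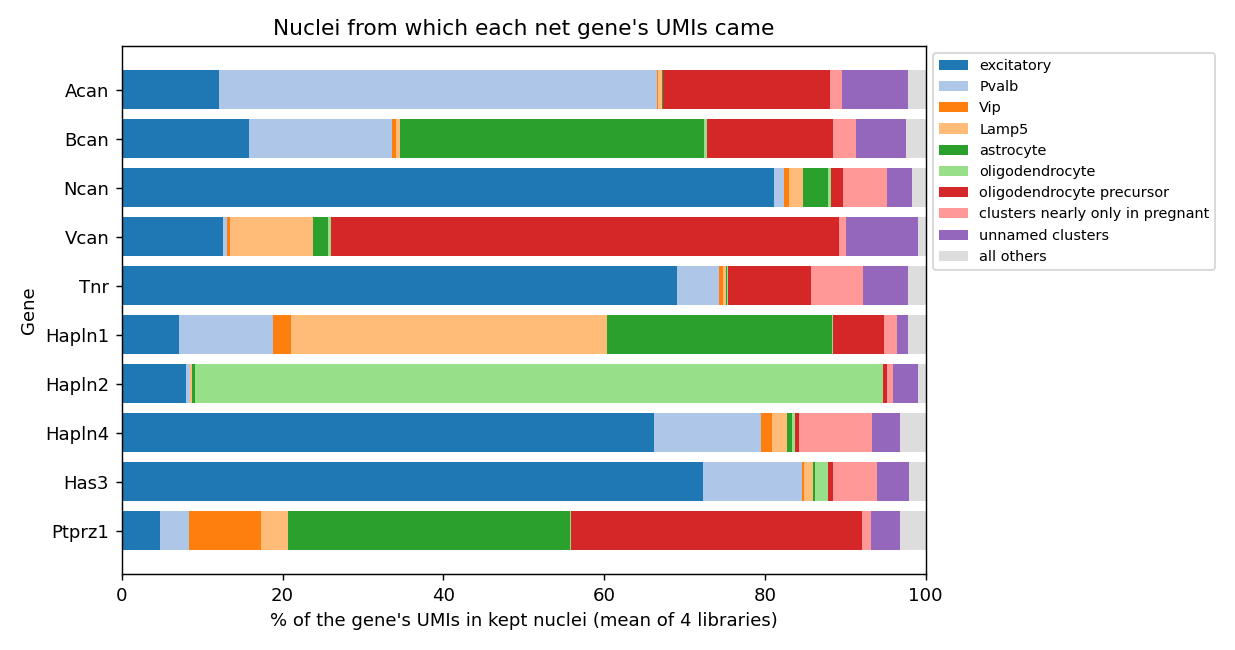
Percent of each net gene's UMIs that came from each group of nuclei, as a mean over the 4 libraries (bars end at 100%). Pvalb neurons hold 54.4% of Acan UMIs, oligodendrocytes 85.6% of Hapln2 UMIs and excitatory neurons 81.1% of Ncan UMIs.

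Bcan and Vcan had their highest CPM in glia, and Ncan was spread over neurons. Bcan stood at 459 ± 31.1 CPM in astrocytes and 264 ± 37.8 in oligodendrocyte precursors, with no overlap between their libraries. Pvalb neurons followed with 63.0 ± 2.99 CPM, above L5 ET neurons (14.0 ± 1.94) and Sst neurons (13.3 ± 2.49). Astrocytes gave 37.9% of Bcan UMIs, Pvalb neurons 17.8%, excitatory neurons 15.9% and oligodendrocyte precursors 15.6%. Vcan stood at 1511 ± 7.52 CPM in oligodendrocyte precursors, 14.9-fold over Lamp5 neurons (102 ± 19.9), a class of inhibitory neurons of the upper layers. Pvalb neurons did not figure among Vcan sources, with 0.414% of its UMIs. Ncan was highest in astrocytes (69.8 ± 17.2 CPM) and oligodendrocyte precursors (47.3 ± 8.0), whose libraries overlapped, and lay between 25.1 and 39.0 in the 7 excitatory types. Pvalb neurons, with 8.66 ± 1.34 Ncan CPM, stood below every excitatory type. Excitatory neurons gave 81.1% of Ncan UMIs and 75.6% of all UMIs.

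Tnr was read in every neuronal type, yet its level in oligodendrocyte precursors stood far above. It reached 5196 ± 240 CPM there, with a UMI in 100% of these nuclei at 2000 UMIs. Among the neurons of the 17 types L6 IT came first (687 ± 59.1 CPM) and Pvalb second (565 ± 31.2), and these ranges did not overlap, while L2/3 IT (492 ± 66.8) overlapped Pvalb. Outside the 17 types, the Car3 or claustrum cluster held 871 Tnr CPM over all libraries, and 1 cluster found almost only in pregnant mice 672. L4/5 IT neurons (243 ± 28.2) were the lowest excitatory type, and Vip (156 ± 27.6) and Lamp5 (89.7 ± 39.9) the lowest neurons. Astrocytes held 29.4 ± 19.4 and mature oligodendrocytes 14.7 ± 3.5 Tnr CPM. Excitatory neurons supplied 69.0% of Tnr UMIs and oligodendrocyte precursors 10.3%.

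The 3 link proteins differed in the cell type where each was highest, and only Hapln2 was nearly confined to 1 type. Hapln1, which joins lecticans to hyaluronan in many tissues, averaged 112 ± 41.6 CPM in astrocytes and 88.6 ± 20.3 in Lamp5 neurons, whose libraries overlapped. At the finer clustering the Lamp5 nuclei split into a cluster still named Lamp5, with 64 to 88 nuclei in a library, and 1 named for Sncg neurons, with 46 to 75. The former held 131 CPM of Hapln1 and took the first place from astrocytes. Oligodendrocyte precursors (31.4 ± 13.8) and Pvalb neurons (13.8 ± 4.29) followed, and each excitatory type other than L5/6 NP stayed at or below 0.430. Lamp5 neurons gave 39.3% of Hapln1 UMIs and astrocytes 28.0%, an order that depends on the clustering. The finer Lamp5 cluster held 141, 112, 118 and 138 of the 425, 360, 568 and 576 Hapln1 UMIs, and astrocytes 77, 82, 243 and 163. Hapln2, known at nodes of Ranvier, the gaps in myelin, stood at 274 ± 21.2 CPM in mature oligodendrocytes and at or below 4.55 in every other type. Hapln4, a link protein of inhibitory synapses and nets, was highest in Pvalb neurons at 11.5 ± 1.61 CPM, 2.21-fold over L5 ET neurons (5.22 ± 1.45), with a UMI in 16.0% ± 1.25 of Pvalb nuclei and 15.6% ± 3.43 of the deeper L5 ET nuclei (median 33520.25 UMIs), and in 2.12% ± 0.744 and 1.48% ± 0.493 at 2000 UMIs. Endothelial cells, few in number, overlapped both at 7.5 ± 5.71 CPM. Excitatory neurons gave 66.2% of Hapln4 UMIs and Pvalb neurons 13.4%.

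Has3 was low throughout. L5/6 NP neurons held 3.67 ± 1.69 CPM, Pvalb neurons 3.07 ± 0.76 and L5 ET neurons 2.67 ± 0.672, and their libraries overlapped. Ptprz1 was high in both glial types, at 3331 ± 204 CPM in oligodendrocyte precursors and 2291 ± 167 in astrocytes, without overlap. Vip neurons followed at 554 ± 77.1, well above Lamp5 (126 ± 25.5), Sst (98.1 ± 6.26) and Pvalb neurons (69.4 ± 7.18). At 2000 UMIs, 98.9% ± 0.534 of astrocytes and 54.9% ± 7.69 of Vip nuclei held a Ptprz1 UMI.

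The neighbouring pairs were compared across the 17 types, as a description, because the types come from the same 4 libraries. Pearson's r of mean log2(CPM + 1) was 0.66 for Vcan and Hapln1, which share Lamp5 neurons, astrocytes and precursors, and 0.54 for Acan and Hapln3. It was 0.03 for Bcan and Hapln2, read in astrocytes and in oligodendrocytes, and -0.17 for Ncan and Hapln4. Among the members, the closest pair was Hapln1 and Ptprz1 (r = 0.85), and Bcan and Ptprz1 followed (0.79). Of 12524 genes that reached 10 CPM in a type, those nearest to Hapln2 were the oligodendrocyte genes Nkx6-2 (0.99) and Enpp6 (0.98). Has2, another hyaluronan synthase, was among the nearest 2 to Vcan (0.89), after the kinesin Kif4 (0.92). Nearest were Adm (0.91) and Gpnmb (0.86) for Acan, Spsb4 (0.91) and Vegfa (0.89) for Bcan, and Cfap100 (0.90) and Ccdc88c (0.88) for Ncan. They were Rap1gap and Atp6v0a4 (both 0.90) for Tnr, Ccdc106 (0.85) after Ptprz1 for Hapln1, and Ogfod2 (0.89) and Gas6 (0.88) for Hapln4. For Has3 they were Gas2l3 (0.79) and Commd10 (0.73), and Mtss2 (0.89) was among the nearest 2 to Ptprz1. The floor of 10 CPM was a mean over libraries, and small types make it a weak one. In mural nuclei of non-pregnant replicate 1, 1 Vcan UMI stood for 43.4 CPM. Genes of low count could thus pass, and their r can rest on few UMIs.

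Pregnant and non-pregnant mice were then compared in counts summed over the nuclei of each library, 2 against 2, so animals and not nuclei are the replicates. The p-values set the group difference against a spread between libraries that is estimated in part from all genes. An exact permutation test of 2 against 2 cannot go below 0.333, so the test was edgeR's quasi-likelihood test fitted across all genes, with Benjamini-Hochberg adjustment and a threshold of 0.05 on the adjusted p. Values by library below are normalised CPM (scaled by edgeR's TMM factors), given for non-pregnant replicates 1 and 2 and then pregnant replicates 1 and 2.

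In Pvalb neurons, the cells that nets enwrap, no net gene passed the test. Of the 10 genes 8 had enough counts to be tested and 0 were called, against a background of 0.901% of 12434 genes; 1 had an unadjusted p below the threshold, against 9% of all genes, and DESeq2 called 0. Acan stood at 19.3, 22.3, 23.8 and 18.9 CPM, and the pregnant values lay on both sides of the non-pregnant ones (log2 fold change 0.04, SE 0.19, adjusted p = 0.986). The link protein gene Hapln4 stood at 12.3, 9.85, 13.8 and 10.4 CPM, again with overlap (0.15, SE 0.24). Ncan, Has3 and Ptprz1 also overlapped between the groups, with log2 fold changes of 0.02, 0.02 and -0.07.

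Bcan and Tnr were each a little lower in both pregnant libraries of Pvalb neurons. Bcan read 63.8, 67.6, 62.6 and 59.1 CPM (log2 fold change -0.11, SE 0.11, adjusted p = 0.849). Tnr read 580, 604, 578 and 511 CPM (-0.12, SE 0.09, adjusted p = 0.781). Hapln1 was the 1 net gene with an unadjusted p below the threshold: 8.4, 12.4, 17.8 and 16.9 CPM, from 30, 58, 76 and 60 UMIs, both pregnant libraries above both non-pregnant ones. Its log2 fold change was 0.71 (SE 0.23) and its adjusted p 0.176, which missed the threshold. In these Pvalb neurons the summed markers of astrocytes were 360, 342, 411 and 385 CPM and those of precursors 92.8, 106, 110 and 122, also higher in both pregnant libraries, and their part was not tested. Groups did not overlap for 3 of the 8 tested members, and for 38.1% of all genes tested. Vcan and Hapln2 had at most 11 UMIs in a library and were not tested.

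**Figure D3:**
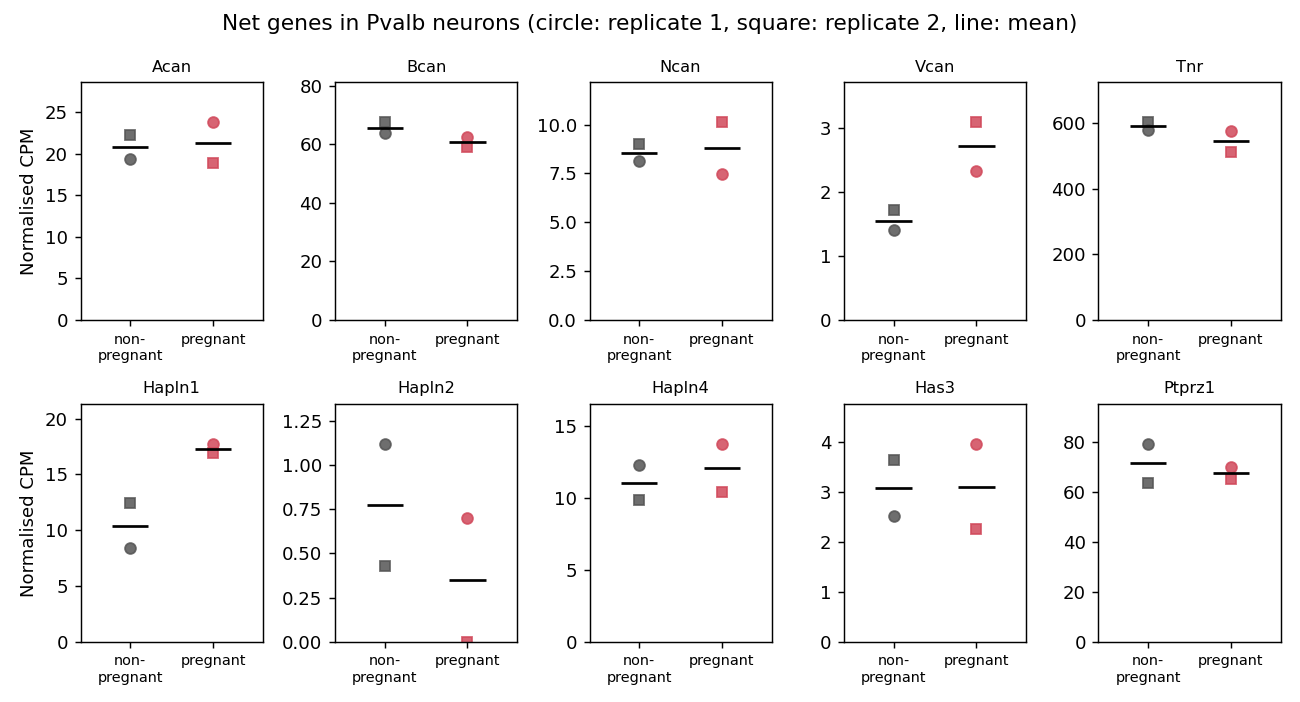
Normalised CPM of the 10 net genes in Pvalb neurons of each library, from 222 to 264 nuclei (vertical axis from 0; grey, non-pregnant; red, pregnant; circles, replicate 1; squares, replicate 2; lines, group means). Acan, Hapln4 and Has3 overlap between groups, and Hapln1 lies at 8.4 and 12.4 in non-pregnant and 17.8 and 16.9 in pregnant libraries.

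In astrocytes Hapln1 rose with pregnancy, the 1 call among the 6 members tested there, against 0.532% of 10344 genes called; 3 had an unadjusted p below the threshold (7.94% of all genes). It read 98.5, 69.1, 170 and 115 CPM, from 77, 82, 243 and 163 UMIs in 129, 143, 242 and 216 nuclei. Both pregnant libraries lay above both non-pregnant ones (log2 fold change 0.80, SE 0.17, adjusted p = 0.00408). The call rested on single libraries. Without non-pregnant replicate 2 the fold change was 0.54 (adjusted p = 0.531), without pregnant replicate 1 it was 0.49 (adjusted p = 0.75), and with DESeq2 (0.78) and with doublets kept (0.77) the adjusted p was 1 and 0.191. Over 10 alternatives the adjusted p ran from 0.000439 to 1 and passed the threshold in 6. The summed markers of Lamp5 neurons, the other large source of Hapln1, were 101, 105, 105 and 116 CPM in these astrocytes, and those of astrocytes 13350, 13190, 13364 and 12962. Those of excitatory neurons were 174, 128, 214 and 222, those of red blood cells 7.64, 8.03, 55.8 and 60.99, and those of endothelial cells 5.09, 1.6, 20.4 and 9.33, and their part was not tested. Red blood cell markers were higher in both pregnant libraries of whole libraries too, at 11.6, 8.3, 29.5 and 37.1 CPM, and in Pvalb neurons, at 7.57, 8.66, 26.0 and 21.1.

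The lecticans of astrocytes did not pass the test. Bcan read 477, 476, 430 and 484 CPM, with overlap (log2 fold change -0.06, SE 0.12). Ncan was lower in both pregnant libraries, at 66.5, 99.4, 65.1 and 54.5 (-0.51, SE 0.20, adjusted p = 0.399), and Vcan higher, at 20.5, 27.8, 30.8 and 42.5 (0.56, SE 0.28, adjusted p = 0.61). Ptprz1 read 2384, 2581, 2324 and 2046 (-0.19, SE 0.12, adjusted p = 0.765). Tnr read 16.6, 55.6, 11.2 and 36.8, with overlap (-0.70, SE 0.97), but it was called without non-pregnant replicate 1 (-1.21, adjusted p = 0.00838) and without pregnant replicate 2 (-1.78, adjusted p = 0.0152). Summed precursor markers in these astrocytes were 42.0, 60.2, 33.3 and 75.3 CPM, high in the same 2 libraries as Tnr, and their part was not tested. Acan, Hapln2, Hapln4 and Has3 had at most 5 UMIs in a library and were not tested.

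In oligodendrocyte precursors, which had the highest CPM of Acan, Vcan, Tnr and Ptprz1, 0 of 7 members tested were called, against 0.0903% of 8862 genes; 1 had an unadjusted p below the threshold (6.06% of all genes) and DESeq2 called 0. All 7 had log2 fold changes below 0, with a median of -0.17, and the median over all genes was -0.006. The sizes were small apart from Hapln1. Vcan read 1554, 1615, 1570 and 1496 CPM (-0.05, SE 0.12) and Tnr 5179, 5876, 5431 and 4976 (-0.09, SE 0.12), both with overlap. Acan was lower in both pregnant libraries, at 45.1, 40.5, 32.6 and 37.1 CPM (-0.29, SE 0.28, adjusted p = 0.94). Bcan read 290, 299, 216 and 284 (-0.24, SE 0.14) and Ptprz1 3475, 3725, 3168 and 3378 (-0.14, SE 0.12). Hapln1 read 48.1, 39.5, 27.9 and 14.6 CPM, from 32, 41, 24 and 11 UMIs, with both pregnant libraries below both non-pregnant ones (-0.99, SE 0.32, adjusted p = 0.385). The summed markers of precursors were 8098, 8179, 7182 and 6981 CPM, those of astrocytes 756, 771, 776 and 694, and those of mature oligodendrocytes 520, 177, 214 and 121; their part in these values was not tested.

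Hapln1 thus read higher with pregnancy in astrocytes and Pvalb neurons and lower in oligodendrocyte precursors, and the difference between types was tested after these values had been seen, with the animal as a block. The pregnancy effect in astrocytes exceeded that in precursors by 1.82 on the log2 scale (SE 0.35, edgeR adjusted p = 0.00115; 0.248% of 10895 genes called). That in Pvalb neurons exceeded it by 1.72 (SE 0.41, adjusted p = 0.00783; 0.623% of 13006 called). Leaving out 1 library at a time gave 1.68 to 2.06 for astrocytes, with an adjusted p of 0.0542 without non-pregnant replicate 2 and below the threshold without each of the others. For Pvalb neurons it gave 1.37 to 2.25, and the adjusted p was 0.405 without non-pregnant replicate 1, 0.324 without non-pregnant replicate 2 and 0.298 without pregnant replicate 2. In Lamp5 neurons Hapln1 read 98.1, 66.3, 83.1 and 110 CPM, with overlap (0.23, SE 0.18). In L5/6 NP neurons it read 14.3, 11.3, 6.68 and 5.85 (-1.04, SE 0.43, adjusted p = 0.377).

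**Figure D4:**
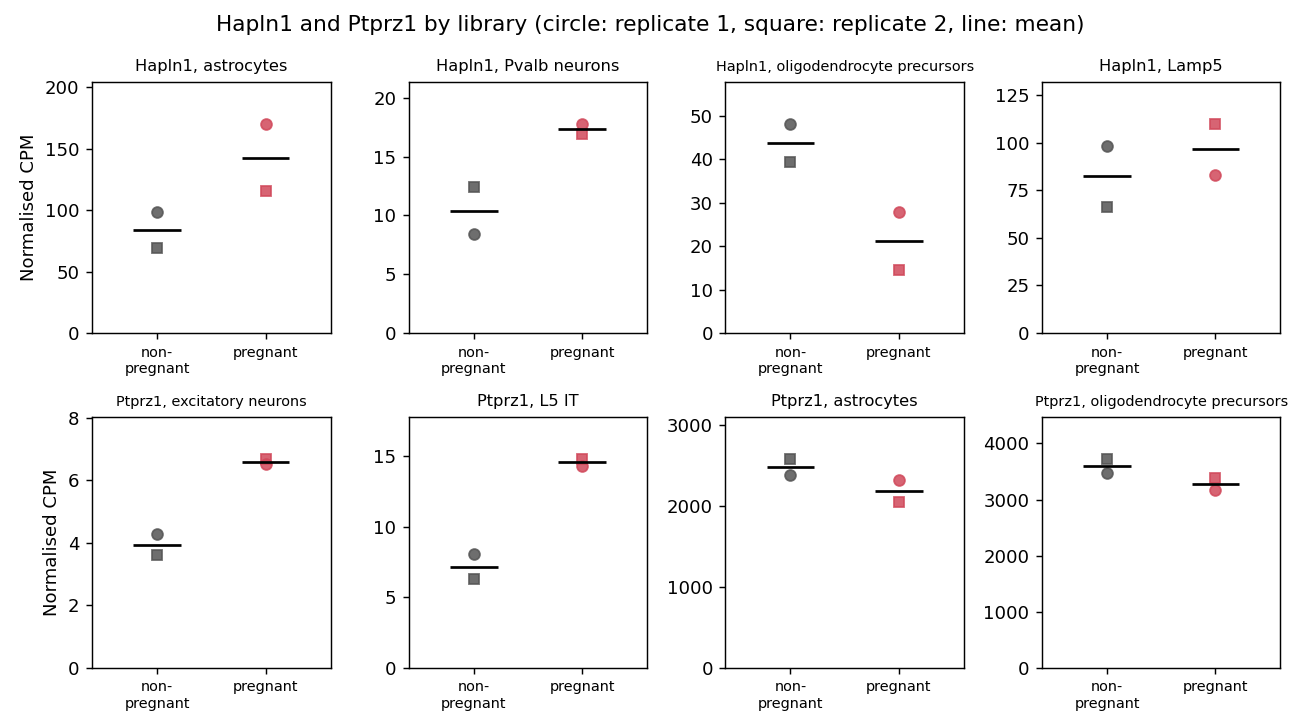
Normalised CPM by library of Hapln1 (top) and Ptprz1 (bottom) in 4 cell classes each (vertical axes from 0 and scaled by panel; grey, non-pregnant; red, pregnant; circles, replicate 1; squares, replicate 2; lines, group means). Hapln1 lies at 98.5 and 69.1 against 170 and 115 in astrocytes and at 48.1 and 39.5 against 27.9 and 14.6 in oligodendrocyte precursors; Ptprz1 lies at 8.06 and 6.26 against 14.3 and 14.8 in L5 IT neurons.

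In mature oligodendrocytes 0 of 4 members tested were called, against 0.118% of 10141 genes; 0 had an unadjusted p below the threshold (7.25% of all genes), and DESeq2 called 0. Hapln2, their own link protein, read 304, 284, 255 and 266 CPM, lower in both pregnant libraries (log2 fold change -0.17, SE 0.12, adjusted p = 0.82). Tnr, Ncan and Ptprz1 had at most 30 UMIs in a library there. In microglia, which hold few net transcripts, 0 of the 2 members tested were called, against 0.921% of 9442 genes; 1 had an unadjusted p below the threshold (8.23% of all genes) and DESeq2 called 0. Ptprz1 read 6.58, 10.4, 32.2 and 18.9 CPM, from 6, 11, 19 and 15 UMIs (1.51, SE 0.47, adjusted p = 0.137), and Tnr 12.1, 12.3, 32.2 and 12.6 (0.80, SE 0.46). Vcan, at 3.29, 3.79, 35.6 and 3.78 and not tested in the full data, was called without pregnant replicate 2 (3.26, adjusted p = 0.00178). Summed precursor markers in these microglia were 10.8, 10.8, 77.2 and 17.4 CPM, highest in the same library as all 3 genes; their part was not tested.

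In excitatory neurons 0 of 10 members were called, against 0.97% of 19177 genes; 3 had an unadjusted p below the threshold (12.5% of all genes), and DESeq2 called 1, Ptprz1. Ncan read 30.9, 27.3, 30.8 and 31.0 CPM (log2 fold change 0.09, SE 0.09), and Tnr 424, 372, 474 and 377 (0.10, SE 0.12), both with overlap. Ptprz1 was low but apart: 4.27, 3.6, 6.5 and 6.68 CPM, from 309 to 432 UMIs (0.75, SE 0.14, adjusted p = 0.0533). Without non-pregnant replicate 1 or 2 its adjusted p was 5.9e-06 and 0.00302, and without pregnant replicate 1 or 2 it was 0.61 and 0.403. Vcan read 2.68, 3.22, 4.18 and 4.31 (0.52, SE 0.15, adjusted p = 0.186) and Bcan 2.27, 3.18, 3.83 and 3.59 (0.44, SE 0.19, adjusted p = 0.376). Both were called without non-pregnant replicate 2, Vcan at 0.66 (adjusted p = 0.0125) and Bcan at 0.71 (adjusted p = 0.0116), and Acan, with 8 to 23 UMIs, was called without non-pregnant replicate 1 (1.84, adjusted p = 0.0296). Groups did not overlap for 5 of the 10, against 42.3% of all genes. With equal numbers of nuclei from each excitatory type in every library, Ptprz1 moved to 0.46 (adjusted p = 0.281), and Bcan to -0.04. Summed L5/6 NP markers in excitatory neurons were 143, 105, 382 and 380 CPM, and L5/6 NP neurons held 41.2 ± 6.71 Ptprz1 CPM, the most of any excitatory type. L5/6 NP neurons gave 52, 49, 62 and 81 of the 309, 320, 428 and 432 Ptprz1 UMIs of excitatory neurons. Summed astrocyte markers were 600, 555, 563 and 523, and precursor markers 139, 136, 132 and 140, both with overlap between the groups. The part of these lists in the values above was not tested.

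Within single types, Ptprz1 rose in L5 IT neurons, excitatory cells whose axons stay within the telencephalon. It read 8.06, 6.26, 14.3 and 14.8 CPM, from 48, 31, 88 and 74 UMIs, with no overlap (log2 fold change 1.01, SE 0.23, adjusted p = 0.0268; 1.3% of 13061 genes called). DESeq2 gave 1.02 with an adjusted p of 0.45, and the adjusted p was 0.102 when non-pregnant replicate 2 was left out, 0.131 when pregnant replicate 1 was, and 0.174 when pregnant replicate 2 was. In L5 IT neurons several summed lists were also higher in both pregnant libraries, and their part was not tested. L5/6 NP markers stood at 218, 207, 383 and 395 CPM, L6 IT markers at 711, 301, 1130 and 1136, and L5 ET markers at 28.9, 22.1, 72.3 and 61.6. Genes that lead the clusters found almost only in pregnant mice stood at 171, 81.2, 231 and 302. These lists overlap: that one shares Tshz2 and Nxph2 with the L5/6 NP list, which also holds the L5 IT marker Etv1. Ptprz1 in L5 IT neurons was the 1 call among 59 pairs of a member and a type in the 10 other types tested. Over all genes 0.67% of such pairs were called. Of the 59 pairs 11 had an unadjusted p below the threshold (9.15% of all pairs). Ptprz1 was also higher in both pregnant libraries of L2/3 IT (0.47), L4/5 IT (0.38), L5 ET (0.68) and L6 IT neurons (1.02), none past the threshold. It overlapped in L5/6 NP (-0.18) and L6 CT neurons (0.34). Such separation was common: in all excitatory neurons together the groups did not overlap for 42.3% of genes. The share within each single type is not given here. Hapln4 in Sst neurons read 1.11, 0.777, 4.49 and 5.36 CPM from 2, 2, 12 and 13 UMIs (2.35, SE 0.65, adjusted p = 0.337). With 1 library left out, 5 further pairs were called: Bcan in L2/3 IT (-1.02, adjusted p = 0.0189), Vcan in L6 CT (1.17, adjusted p = 0.028) and Tnr in Lamp5 neurons (1.71, adjusted p = 4.67e-16) without non-pregnant replicate 1, Vcan in Lamp5 neurons (0.68, adjusted p = 0.015) without non-pregnant replicate 2, and Vcan in L5/6 NP neurons (2.82, adjusted p = 0.0401) without pregnant replicate 1. In Lamp5 neurons Tnr read 90.7, 35.9, 106 and 129 CPM, beside summed excitatory markers of 209, 84.1, 213 and 246 and L4/5 IT markers of 177, 99.9, 339 and 267, and 16.7% of that cluster's nuclei had been marked as doublets before removal; their part was not tested.

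The pregnancy effect on Ptprz1 in excitatory neurons differed from that in Pvalb neurons, astrocytes and oligodendrocyte precursors. It exceeded the effect in Pvalb neurons by 0.80 on the log2 scale (SE 0.16, edgeR adjusted p = 0.000572, 1 of 10 members called, against 1.82% of 18303 genes). It exceeded that in astrocytes by 0.91 (SE 0.14, adjusted p = 1.83e-07, 1 of 10 called, against 0.788% of 18791). It exceeded that in oligodendrocyte precursors by 0.88 (SE 0.13, adjusted p = 1.72e-08, 2 of 10 called, against 0.659% of 18353), where Vcan was the other call with a difference of 0.56 (SE 0.145, adjusted p = 0.0207). Without non-pregnant replicate 2 the difference from astrocytes was 0.74 with an adjusted p of 0.0625. The Vcan difference lost its call without non-pregnant replicate 1 (0.50, adjusted p = 0.167), pregnant replicate 1 (0.63, adjusted p = 0.196) or pregnant replicate 2 (0.50, adjusted p = 0.554). The 3 comparisons share the excitatory values, so they are not independent of one another. The make-up of the excitatory nuclei described above is part of each, and its effect was not tested.

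**Figure D5:**
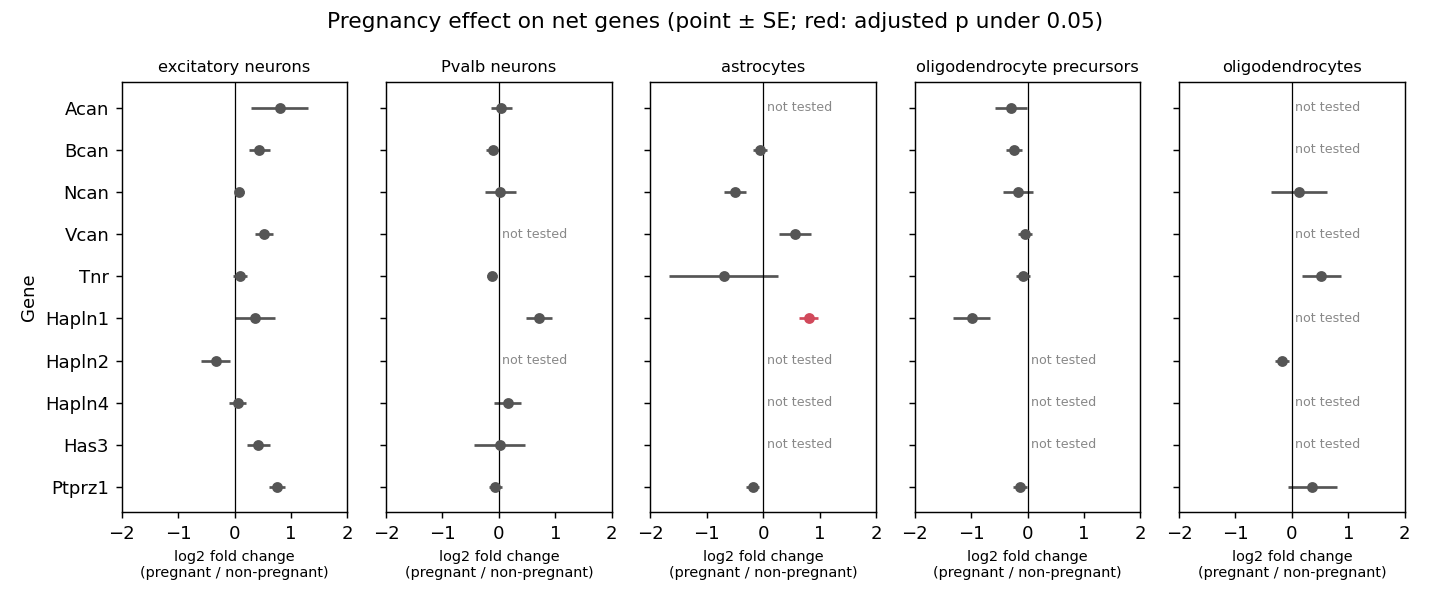
Pregnancy effect (log2 fold change, pregnant mice over the others) for the 10 net genes in 5 cell classes (points, edgeR estimates; bars, 1 SE; red, adjusted p below the threshold). Hapln1 in astrocytes is the 1 red point at 0.80, and Hapln1 lies at 0.71 in Pvalb neurons and -0.99 in oligodendrocyte precursors.

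In whole libraries, with all kept nuclei summed, 0 of 10 members were called, against 1.2% of 20918 genes; 2 had an unadjusted p below the threshold (12.8% of all genes), and DESeq2 called 0. Hapln1 read 4.82, 3.39, 5.99 and 6.02 CPM (log2 fold change 0.55, SE 0.17, adjusted p = 0.183) and Bcan 12.5, 14.7, 16.2 and 17.2 (0.29, SE 0.10, adjusted p = 0.244). The adjusted p for Hapln1 was 4.72e-05 without non-pregnant replicate 1 (0.82), and that for Bcan 0.0029 without non-pregnant replicate 2 (0.42), where Ptprz1 was also called (0.27, adjusted p = 0.036). Astrocytes, a main source of both, numbered 129 and 143 in non-pregnant and 242 and 216 in pregnant libraries. In such sums more cells of a type and more RNA per cell cannot be told apart. With equal numbers of nuclei of each named type, Bcan was at -0.22 and Ptprz1 at -0.22. Hapln1 was not called in that setting, but its log2 fold change stayed between 0.32 and 0.82 over all 11 alternatives, that one included. Acan read 1.52, 1.58, 1.9 and 1.47 CPM (0.12, SE 0.18) and Tnr 456, 422, 517 and 407.5 (0.07, SE 0.11), both with overlap.

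Of 65 other genes that make, modify or bind the net, few passed the test, and those that did rose: 1 of 63 tested in whole libraries, 2 of 57 in excitatory neurons, 2 of 44 in Pvalb neurons, 1 of 32 in oligodendrocytes and 2 of 27 in microglia. The shares of all genes called in these units were 1.2%, 0.97%, 0.901%, 0.118% and 0.921%. Most called genes of any kind rose as well: 149 of 251, 129 of 186, 79 of 112, 10 of 12 and 83 of 87. At an unadjusted p below the threshold stood 10, 8, 8, 2 and 9 of the tested matrix genes. The shares of all genes there were 12.8%, 12.5%, 9%, 7.25% and 8.23%. In Pvalb neurons 2 of 16 tested genes of chondroitin sulfate synthesis rose: Xylt1, which starts the sugar chain (log2 fold change 0.42, SE 0.10, adjusted p = 0.0223), and Csgalnact1, which commits it to chondroitin (0.95, SE 0.21, adjusted p = 0.0331). The median over the 16 was 0.25, against -0.001 over all genes. In excitatory neurons 1 of 18 rose, the uronyl sulfotransferase Ust (0.69, SE 0.09, adjusted p = 0.0155), which also rose in L5 IT neurons (0.78, SE 0.19, adjusted p = 0.0357). Of 17 other matrix and receptor genes Reln rose in excitatory neurons (0.73, SE 0.09, edgeR adjusted p = 0.0153). It encodes a secreted matrix protein and is also a marker of Lamp5 neurons. Summed Lamp5 markers in excitatory neurons were 119, 88.7, 130 and 131 CPM. That list holds Reln itself, so its sum is not independent of the Reln rise. The part of RNA from Lamp5 neurons was not tested. Sparcl1, a secreted protein of astrocytes, rose in whole libraries (0.58, SE 0.09, adjusted p = 0.0149). Astrocytes numbered 129 and 143 in non-pregnant and 242 and 216 in pregnant libraries, and the part of these numbers was not tested. Sparcl1 also rose in oligodendrocytes (1.06, SE 0.18, adjusted p = 0.0162). Summed astrocyte markers there were 228, 220, 214 and 232 CPM and excitatory markers 298, 187, 337 and 398, and their part was not tested. In microglia the neuronal adhesion genes Cntn1 (1.27, SE 0.27, adjusted p = 0.00512) and Nrcam (1.12, SE 0.25, adjusted p = 0.00757) rose, 2 of 10 tested, beside summed excitatory markers of 364, 238, 445 and 438 CPM, whose part was not tested. None of the tested genes of hyaluronan synthesis and breakdown, or of matrix proteases and their inhibitors, was called by edgeR in any of the 7 main units, 5 and 10 of which were tested in Pvalb neurons with 1 and 2 at an unadjusted p below the threshold. In astrocytes 0 of 35 and in oligodendrocyte precursors 0 of 40 tested genes of the 65 were called, with 1 and 5 at an unadjusted p below the threshold (7.94% and 6.06% of all genes). Calls among the 65 were not examined gene by gene under the alternative settings, where counts over all genes moved up and down. Whether these rises hold without any 1 mouse is therefore not shown.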

How the data were processed

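Single-nucleus RNA counts of 4 libraries, 1 mouse each, were used, grouped by the labels as non-pregnant or pregnant. The deposited matrices hold raw UMI counts per gene and nucleus; per the submitters' processing notes the authors used Cell Ranger 10.0.0 and the build GRCm39. The kit reads the 3′ end of polyadenylated RNA, so counts were not scaled to length, and free RNA was not subtracted. Median UMIs per barcode ran from 13187.5 to 17723.

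Kept nuclei had at least 500 genes and at most 5% of UMIs from mitochondria, and the top 5% of each library by doublet score was dropped (2 simulated doublets per nucleus, 60 neighbours). Clustering used scanpy 1.11.5 (2000 variable genes without the net and related genes, 40 components, 20 neighbours, resolution 1, 36 clusters). Names came from 33 marker lists; naming thresholds (score 0.8, margin 0.1, at most 35% doublets) were set after clusters had been seen. Clusters under 0.5% of nuclei in both libraries of a group, with a 10-fold difference, were kept apart.

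UMIs were summed per library and type with at least 50 nuclei in every library, and tested with edgeR 4.0.16 (quasi-likelihood, robust, TMM, filterByExpr with a minimum count of 10), adjusted within each unit; differences between types were tested in 1 model of both types, blocked by mouse. Alternatives were DESeq2 1.42.0, upper-quartile scaling, no filter, each library left out, a replicate block, doublets kept, finer clusters (resolution 2) and equal numbers of nuclei. On simulated counts for astrocytes (10344 genes) the test recovered 56% of 50 genes changed 2-fold and 22% of 50 changed 1.5-fold; for Pvalb neurons (12434 genes) 68% and 42%, and for excitatory neurons (19177 genes) 80% and 24%. The series' design text calls the mice of a group biological replicates. The 10 genes, the related lists and the tests were chosen with earlier results of these data known. Named genes are the 10 members, up to 4 called genes of each related list in a unit, those of smallest p, and the 2 genes most like each member over cell types, of which 1 is not reported here. Promoter windows cover 8 of the 10 members; Hapln4 and Has3 were not in the table.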

Additional observations from a re-analysis of the deposited data

Results flagged for a closer look

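Ptprz1 was flagged because its pregnancy effect in excitatory neurons differed from that in 3 other classes by a test of the difference itself: by 0.80 from Pvalb neurons (edgeR adjusted p = 0.000572), by 0.91 from astrocytes (adjusted p = 1.83e-07) and by 0.88 from oligodendrocyte precursors (adjusted p = 1.72e-08). Both pregnant libraries lay above both non-pregnant ones in excitatory neurons, and both lay below in astrocytes and precursors. With equal numbers of nuclei from each excitatory type the effect in excitatory neurons was 0.46. The part of the make-up of these nuclei in the differences was not tested. Vcan was flagged in the same way, with a difference of 0.56 between excitatory neurons and oligodendrocyte precursors (edgeR adjusted p = 0.0207). With 1 library left out the Vcan difference ran from 0.5 to 0.67, and its call did not hold throughout.

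Hapln1 was flagged because its effect in oligodendrocyte precursors was lower by 1.82 than in astrocytes (adjusted p = 0.00115) and by 1.72 than in Pvalb neurons (adjusted p = 0.00783). These 2 were among 6 pairs of classes tested after opposite directions had been seen. With 1 library left out the Hapln1 differences ran from 1.68 to 2.06 for astrocytes and from 1.37 to 2.25 for Pvalb neurons. Neither call held throughout. In the other 4 pairs, each of microglia with oligodendrocyte precursors, astrocytes and Pvalb neurons, and oligodendrocytes with Pvalb neurons, the smallest adjusted p of a member was 0.0654, for Vcan in microglia against precursors.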

How the results depend on the processing

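The number of members called stayed at 0 in Pvalb neurons, oligodendrocytes and oligodendrocyte precursors under every alternative. In whole libraries it was 1 with the replicate block and 0 to 2 with 1 library left out. In excitatory neurons it was 1 with doublets kept, with the clusters nearly limited to pregnant libraries added, with DESeq2, with upper-quartile scaling, without the filter and with the replicate block, and 0 to 3 with 1 library left out. In astrocytes it was 0 with doublets kept and with DESeq2, and 0 to 2 with 1 library left out. In microglia doublets kept gave 3 (Tnr, Ptprz1 and Vcan), and leaving out a library 0 to 1. In other types it was 2 with doublets kept, 4 with finer clusters (Ptprz1 in L5 IT, and Tnr, Ptprz1 and Vcan in Lamp5 neurons), 0 with DESeq2, 3 without the filter, and 0 to 4 with a library left out. Tests of the difference between excitatory neurons and Pvalb neurons, astrocytes or precursors gave 1 to 2 calls each with a library left out. The cause was not tested. Counts over all genes moved more. With a library left out they ran from 0 to 1891 in whole libraries (251 in the full data), 0 to 1959 in excitatory neurons (186), 3 to 191 in Pvalb neurons (112), 16 to 78 in astrocytes (55), 2 to 302 in oligodendrocytes (12), 8 to 38 in precursors (8) and 30 to 154 in microglia (87). Under the other alternatives they ran from 44 to 689, 86 to 641, 35 to 184, 1 to 63, 2 to 74, 0 to 19 and 5 to 137 in the same order.

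Log2 fold changes near 0 changed sign. With equal nuclei per type Bcan (-0.22), Ptprz1 (-0.22) and Vcan (-0.0051) did in whole libraries, and Bcan (-0.044) and Hapln4 (-0.031) in excitatory neurons. In Pvalb neurons Acan (-0.044), Has3 (-0.26) and Ptprz1 (0.021) did with equal nuclei per fine cluster, Ncan (-0.051) with doublets kept and Has3 (-0.00012) with the replicate block. The cause was not tested. With 1 library left out, values in whole libraries ran from -0.073 to 0.28 for Acan, -0.025 to 0.11 for Ncan, -0.042 to 0.25 for Vcan and -0.11 to 0.23 for Tnr. In excitatory neurons they ran from -0.077 to 0.24 for Tnr, -0.058 to 0.71 for Hapln1 and -0.0023 to 0.1 for Hapln4. In Pvalb neurons they ran from -0.15 to 0.19 for Acan, -0.2 to 0.24 for Ncan, -0.074 to 0.33 for Hapln4, -0.47 to 0.34 for Has3 and -0.22 to 0.09 for Ptprz1. In astrocytes they ran from -0.15 to 0.021 for Bcan and -1.78 to 0.52 for Tnr, in oligodendrocytes from -0.076 to 0.32 for Ncan and -0.14 to 1.3 for Ptprz1, and in precursors from -0.36 to 0.14 for Ncan and -0.18 to 0.0042 for Tnr.

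Same-numbered libraries showed little likeness: their departures from the group means correlated between -0.087 and 0.055 over the units. With 2 libraries a group this cannot exclude a factor shared by replicate number. A replicate block gave 689 called genes in whole libraries, against 251 without it. The highest CPM stayed in the same type for 10 members with doublets kept and 9 with finer clusters, and the highest share of nuclei stayed for 8 when nuclei were thinned to 1000 UMIs. Low counts limit Acan, Has3 and Hapln4, and 2 mice a group limit every comparison.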

Other observations

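A cluster of 167 nuclei that scored alike on the lists for newly formed and for mature oligodendrocytes, and so stayed unnamed, held 3557 Tnr CPM, 294 Vcan, 162 Ptprz1, 133 Bcan and 13.1 Acan over all libraries, but 9.42 Hapln2. The named mature oligodendrocytes held 274 Hapln2 and 14.7 Tnr CPM, and the precursors 3.32 Hapln2 and 5196 Tnr.

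The 4 clusters found almost only in the pregnant libraries had 555 and 433 Tnr CPM in pregnant replicates 1 and 2, 22.8 and 25.2 Ncan, 5.87 and 5.92 Hapln4 and 14.3 and 16.2 Ptprz1. Ptprz1 differed among them. In 1 of the 4, whose leading genes include Tshz2, Deptor and Npsr1, it read 40.4 and 49.9 CPM, and in the others between 1.08 and 6.77.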
